A study of Mus musculus with 2 samples.

Results

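The genes described here encode histone modifiers and chromatin remodellers, 53 listed genes of the 22002 named genes on the array. A gene was counted where a spot that is not a control carried its name, or an accession with that current symbol, and older names such as Jarid1 and Jmjd forms were accepted. All 53 were found, with 113 probes, of which 102 were measured. A measured probe is one that stood well above background in 1 or both channels of each array. Every listed gene was well above background in both channels of both arrays, and none had a saturated chosen probe.

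The samples were G1E-ER-GATA-1 cells, a mouse line labelled as strain GATA-1-null that carries GATA-1 fused to an estrogen receptor domain. Cells that received LMO2 siRNA were compared with cells that received control siRNA, and after transfection both were kept for 24 h in b-estradiol, which switches the fusion protein on. Each of 2 Agilent 2-colour arrays took RNA of both arms, with LMO2 siRNA in Cy3 and control siRNA in Cy5 each time, so siRNA and dye cannot be told apart. The labels give the arrays replicate numbers and do not mention separate cultures. The p-values therefore rest only on variation between these arrays, pooled over all genes, and that variation may be technical. All cells descend from 1 line, and estradiol is shared by both arms, so nothing here compares induced with uninduced cells.

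Chromatin regulators change how tightly DNA is packed. Remodellers such as SWI/SNF, ISWI and NuRD use ATP to move or evict nucleosomes. Histone acetyltransferases and demethylases of repressive marks generally favour transcription, and deacetylases, polycomb proteins and several methyltransferases generally oppose it. In erythroid cells GATA-1 works in complexes bridged by LMO2 and also recruits NuRD through its partner FOG-1. Chromatin condenses as red cell precursors mature.

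Ratios below are log2 of LMO2 siRNA over control siRNA, given as the mean ± SD over both arrays (n = 2). A gene was called where limma's adjusted p was under 0.05 over all 14308 measured genes, each represented by its brightest measured probe. The words rose and fell are kept for genes called in 1 direction with 3 sets of values: the background-corrected and loess-normalised ratios, the same with the scanner's position ratio divided out, and the scanner's own processed signals. The gene's chosen probe also had to be unsaturated. Lmo2 itself read -1.82 on replicate 1 and -2.02 on replicate 2, and its signal was 3.77-fold lower with LMO2 siRNA (-1.92 ± 0.14, limma adjusted p = 4.4e-22). Spots well above background made up 62.9% and 55.8% of the LMO2 siRNA channel on replicates 1 and 2, and 68.2% and 60.4% of the control channel. The number of arrays limits the precision of every ratio.

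The labels call the tissue erythroid and the cell type murine ES cells. All 12 erythroid markers on the list were above background in both channels. Of the pluripotency markers, Nanog, Sox2 and Zfp42 were not well above background in either channel, and Pou5f1 was so in the control channel only, while Dppa4, Dppa5a, Esrrb and Tdgf1 were above it in both. Megakaryocyte markers were above background for 7 of 8, mast cell and basophil markers for 5 of 8, and granulocyte and macrophage markers for 5 of 8. Of these markers 2 of each class rose and 1, the megakaryocyte marker Gp9 (-0.31), fell. Hdc (1.22), which makes histamine in mast cells, and Gp1ba (1.18), a platelet receptor, had the highest ratios. The part of such cells in the chromatin genes' values was not tested. Fewer cells of a type and less RNA per cell cannot be told apart in these bulk samples.

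The results turn on a few probes, each 60 bases long. Their first 30 bases are printed 5′ to 3′ as deposited, for Dpf2, whose arrays disagreed, for Ehmt2 and Ehmt1, the listed genes with the highest ratios after loess, for Smarcc1 and Dot1l, and for the 3 probes of Kdm3a, which gave opposite signs.
Dpf2: ccctgagttttctgtttcctgcttagtggc
Ehmt2: ttccccactgagcctggcctcagttagctg
Ehmt1: gttttttgacagttttatgagcagtctttt
Smarcc1: attccatctgttgtcacagggttatggaga
Dot1l: atgatcagtgacagtattttatagagattt
Kdm3a, row 138: ttttaactattagggatcactgcgaagttt
Kdm3a, row 477: ttatgtctgtcattttggattttgaatagc
Kdm3a, row 15: agatggagattctgatgaactcacaatcaa

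Among the 53 genes, 15 were called higher, 15 lower and 23 neither. That is 56.6% called, beside 52.0% of all measured genes (24.6% higher and 27.4% lower), a share near the background. Only Ehmt2 rose, and no listed gene fell, beside 5.44% of all measured genes that rose and 2.56% that fell (8.01% in all). Processed signals alone called 1 listed gene higher and 0 lower, beside 6.81% and 3.42% of all measured genes. Position-corrected ratios called 10 higher and 11 lower, beside 20.3% and 18.0%. Tested against a 1.5-fold change with limma's treat, 1 listed gene, Dpf2, was called, beside 2.36% of all measured genes. The median log2 ratio was -0.047 over the listed genes and -0.018 over all measured genes, and the median size regardless of sign was 0.17 and 0.14. Ratios had 1 sign on both arrays for 46 of the 53 genes. Centring each array on the median of its measured probes in place of loess gave 3 called higher and 33 lower (5.66% and 62.3%), beside 32.3% higher and 39.6% lower of all measured genes. The split of the listed genes between directions therefore depends on the normalisation, and under that setting it lay further from that of all measured genes than after loess. Centring on the median of all spots put the median of all measured genes at -0.41 and that of the listed genes at -0.59.

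**Figure D1:**
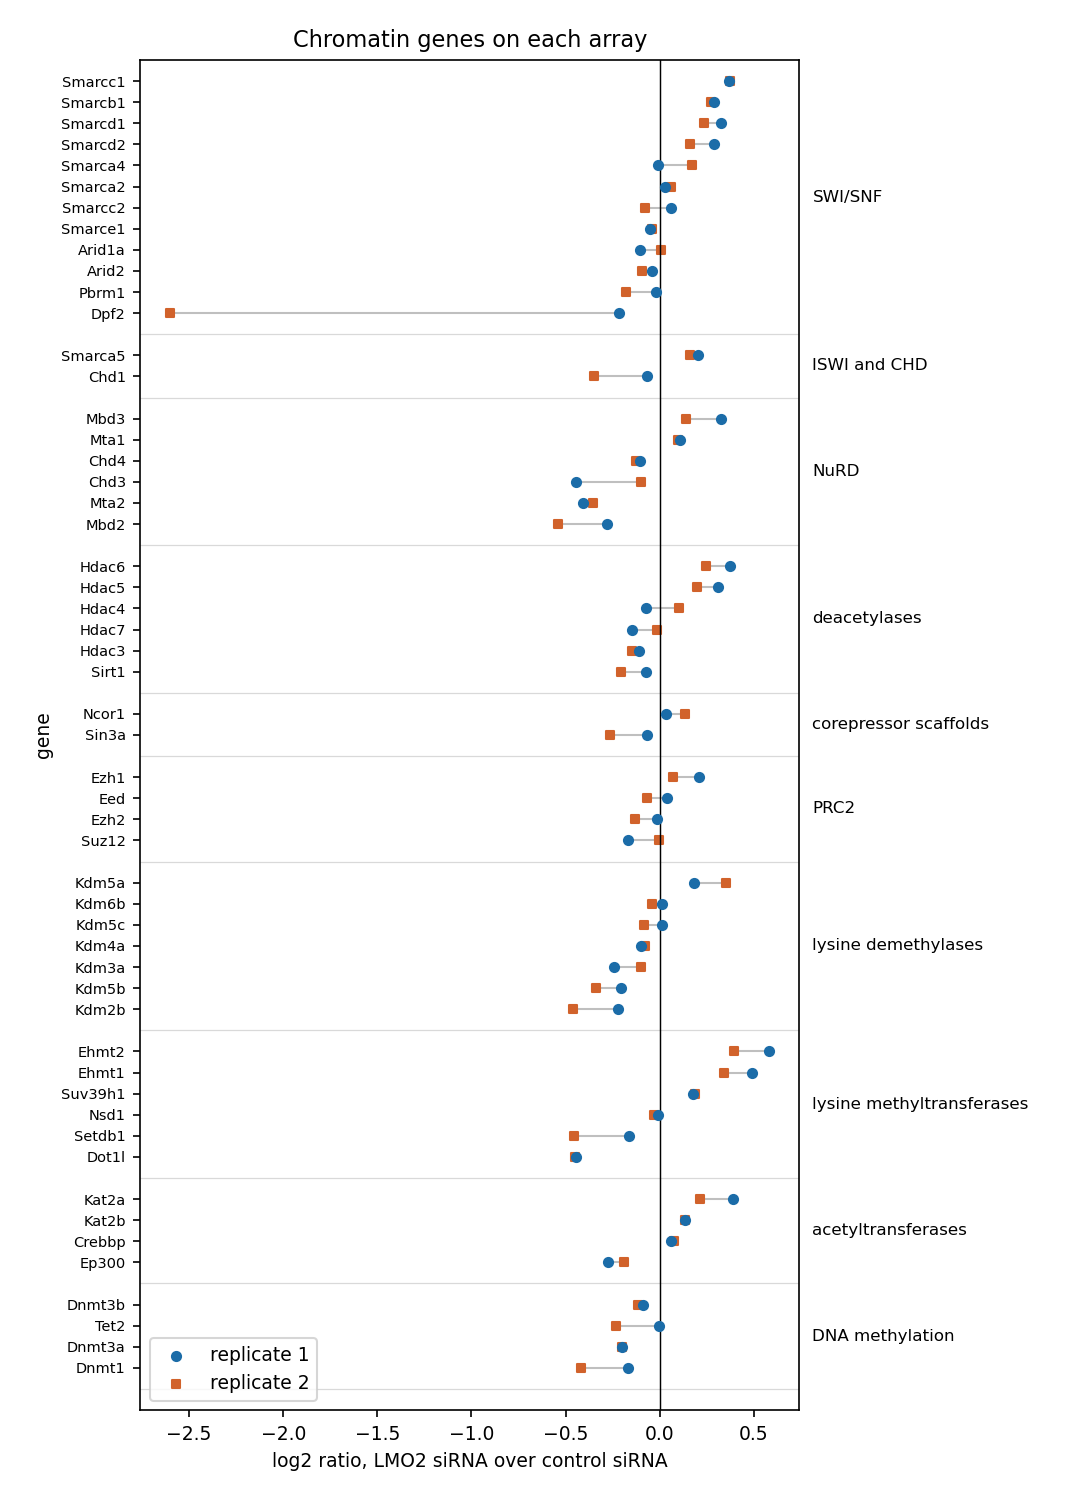
Log2 ratio (LMO2 siRNA over control siRNA) of the 53 chromatin genes on replicate 1 (circles) and replicate 2 (squares), joined by a grey line and grouped by role. Most genes lie between -0.5 and 0.5 on both arrays, and Dpf2 has -0.22 and -2.60.

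Ehmt2, which encodes the histone H3 lysine methyltransferase G9a, had the highest ratio of the list after loess and was the gene that rose. Its normalised signal was 10314 and 9491 intensity units with LMO2 siRNA on replicates 1 and 2, against 6889 and 7224 with control siRNA. Both LMO2 siRNA values lay above both control values. The log2 ratio was 0.58 and 0.39 (0.49 ± 0.13, limma adjusted p = 2.6e-08). Position correction gave 0.66 and processed signals 0.67 (limma adjusted p = 0.038). Before dye normalisation the Cy5 channel was the brighter on both arrays, with mean spot signals of 7386 and 6874 with LMO2 siRNA against 9592 and 9919 with control siRNA, so the direction rests on that normalisation. Ehmt2 has 1 probe, at row 125. With arrays centred on the median of measured probes it had 0.13 (limma adjusted p = 0.15), below Smarcd1 (0.39), Kat2a (0.30) and Hdac6 (0.28), and did not meet the rule for a rise. With no filter on dim probes, or tested against a 1.5-fold change, 0 of all genes tested met that rule.

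Ehmt1 encodes GLP, which forms a heterodimer with G9a, and it had the next highest ratio after loess. Its normalised signal was 4420 and 4470 with LMO2 siRNA, against 3150 and 3527 with control siRNA. The log2 ratios were 0.49 (replicate 1) and 0.34 (replicate 2) and their mean was 0.42 ± 0.10 (limma adjusted p = 3.7e-07). Position correction gave 0.43, and processed signals also gave 0.43, where the limma adjusted p of 0.055 missed the threshold. Its mean spot signals before dye normalisation ran the other way, with 3206 and 3268 with LMO2 siRNA against 4299 and 4764 with control siRNA, and with median centring its ratio was 0.10 (limma adjusted p = 0.22), below those of Smarcd1, Kat2a, Hdac6, Ehmt2 and Ezh1. A further Ehmt1 probe was not well above background in either channel. These array values, and those of Dot1l and Smarcc1 below, are given after their ratios were seen.

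The other methyltransferases lay on both sides of 0. Dot1l, which methylates histone H3 within the nucleosome core, had the lowest ratio of this class. Its normalised signal was 2604 and 2381 with LMO2 siRNA, against 3547 and 3255 with control siRNA, so both LMO2 siRNA values lay below both control values. The log2 ratio was -0.45 on each array (limma adjusted p = 5.6e-08), -0.26 with position correction and -0.27 in processed signals (limma adjusted p = 0.075). Its 2 dimmer probes read -0.010 and -0.054. Setdb1, a methyltransferase recruited to silenced repeats, was called lower (-0.31 ± 0.21) but had 0.075 with position correction. Suv39h1, a methyltransferase of heterochromatin, was called higher (0.18 ± 0.0052) but had -0.031 with position correction. Nsd1 had -0.019.

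**Figure D2:**
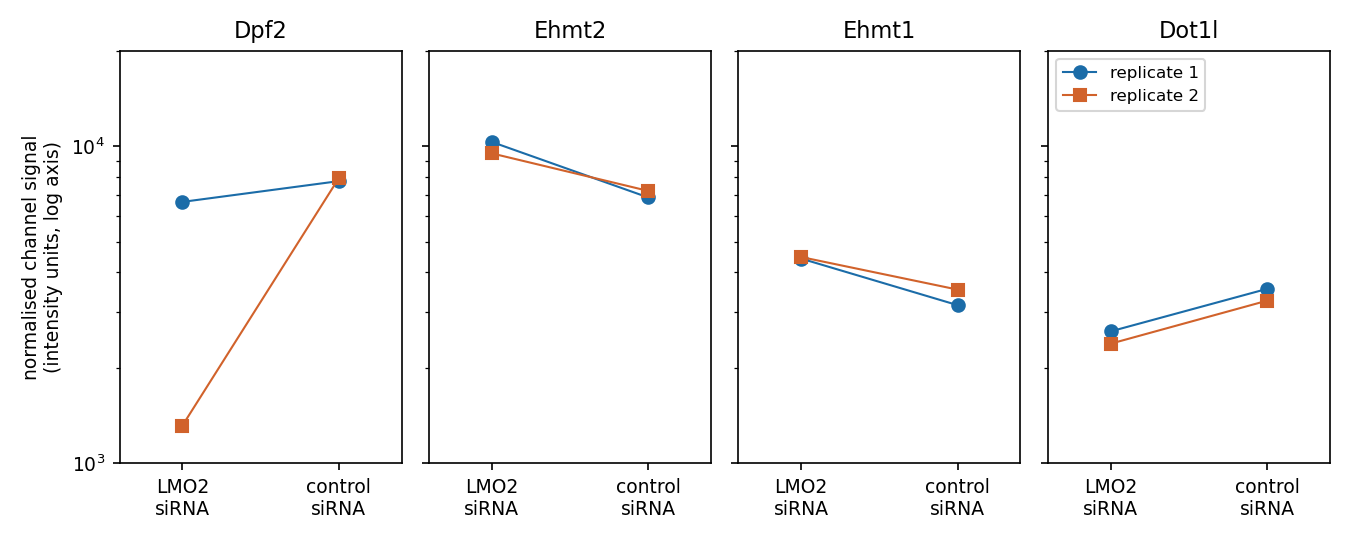
Loess-normalised channel signal (intensity units, log axis) of Dpf2, Ehmt2, Ehmt1 and Dot1l, with LMO2 siRNA left of control siRNA and 1 line per array. The Dpf2 lines part in the LMO2 siRNA channel (6671 and 1313), while the lines of each other gene run together.

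Dpf2 encodes a PHD-finger subunit of SWI/SNF complexes, and its arrays differed more than those of any other listed gene. The normalised signal was 6671 on replicate 1 and 1313 on replicate 2 with LMO2 siRNA, against 7759 and 7934 with control siRNA. The control channel was close on both arrays, and the LMO2 siRNA channel was low on replicate 2 only. Its log2 ratios were -0.22 (replicate 1) and -2.60 (replicate 2) and their mean was -1.41 ± 1.68. Limma called it lower (adjusted p = 3.0e-06), as it did with position correction (-1.34, adjusted p = 0.018), while processed signals gave -1.38 with a limma adjusted p of 0.23. The limma p pools the variance over all genes, with 29.5 prior against 1 residual degree of freedom, so it takes little from the gap between these arrays.

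The spot itself stood apart on replicate 2. It lies at row 249 and column 19, and the scanner flagged its Cy3 signal as non-uniform and the local background of both channels as an outlier. That local background was 256 in the LMO2 siRNA channel and 271 in the control channel, the highest of all spots on replicate 2 in each channel. On replicate 1 it was 41 and 47. The array's median local background on replicate 2 was 39.5 in the LMO2 siRNA channel and 45.5 in the control channel. The pixel SD of the LMO2 siRNA channel was 50.9% of the mean on replicate 2, beside 8.56% on replicate 1. Its median on replicate 2 was 12.7% over the spots, controls left out, in a set range of that channel's signal. Neighbouring spots were compared spot by spot in the scanner's processed log2 ratios. Of 33 measured spots within 3 rows and columns, 5 differed between the arrays by over 0.5 (15.2%), beside 8.1% of the 26019 others. The highest local background among these 33 spots on replicate 2 was 216 with LMO2 siRNA and 177 with control siRNA. On replicate 1 it was 45 in the LMO2 siRNA channel. Raised background on replicate 2 was therefore not confined to the Dpf2 spot. The part of this background in the Dpf2 ratio was not tested. Leaving out spots with outlier flags removed the replicate 2 value, kept that of replicate 1 (-0.22) and left no ratio for the test over both arrays. With a variance prior that follows intensity and is robust to outliers, Dpf2 was no longer called (limma adjusted p = 0.50). In loess-normalised ratios of each gene's brightest probe, a different measure, 0.384% of all measured genes differed by more than 0.5 between the arrays. Of the 53 only Dpf2 did. The SD of the difference between arrays over all measured genes was 0.14.

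**Figure D3:**
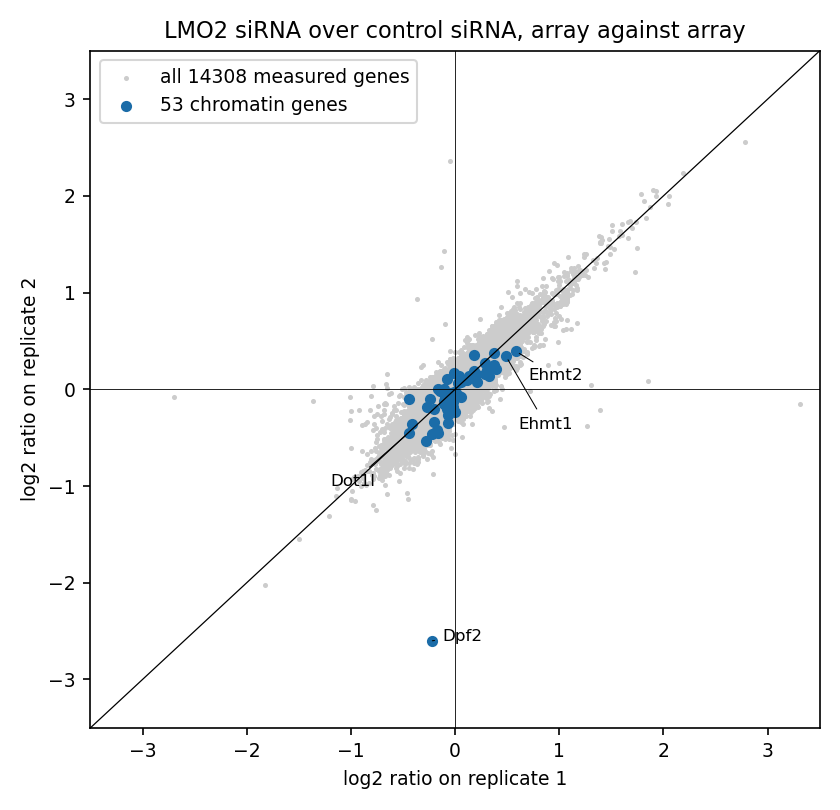
Log2 ratio on replicate 1 (x axis) against replicate 2 (y axis) for all 14308 measured genes (grey) and the 53 chromatin genes (blue), with the line of equal values. Dpf2 lies far below the line at -0.22 and -2.60, and Ehmt2 and Ehmt1 are at the upper right of the blue points.

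The other SWI/SNF genes had small ratios. Of the 12 SWI/SNF genes, 4 were called higher and 1, Dpf2, lower (41.7% called, beside 52.0% of all measured genes). Smarcc1, a scaffold subunit, read 0.37 and 0.37 on the arrays (0.37 ± 0.0037, limma adjusted p = 1.5e-06), with normalised signals of 5985 and 4984 with LMO2 siRNA against 4632 and 3843 with control siRNA. Both LMO2 siRNA values lay above both control values. Position correction and processed signals each gave 0.23, and in processed signals the limma adjusted p was 0.089. The core subunit Smarcb1 (0.28 ± 0.01) and the accessory subunits Smarcd1 (0.28 ± 0.07) and Smarcd2 (0.22 ± 0.09) were called higher, and with position correction had 0.083, 0.12 and 0.12, no longer called.

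The catalytic ATPases Smarca4 (0.080) and Smarca2 (0.045) were not called. Neither were the scaffold Smarcc2 (-0.0097), the DNA-binding subunit Smarce1 (-0.047), Arid1a (-0.049), which marks the BAF form of the complex, and Arid2 (-0.066) and Pbrm1 (-0.10), which mark the PBAF form. With position correction Smarca4 was called higher (0.19) and Arid2 lower (-0.20). Smarca5, the ISWI ATPase, was called higher (0.18 ± 0.03), and Chd1, a remodeller that binds methylated histone H3, was called lower (-0.21 ± 0.20). Neither was called with position correction (0.12 and -0.097).

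NuRD joins a remodeller to histone deacetylases, and 3 of its 6 listed genes were called lower and 1 higher (66.7%, beside the 52.0% of all measured genes). Mbd2, which binds methylated DNA, had -0.41 ± 0.18, but -0.027 with position correction. Mta2, a scaffold of the deacetylase core, had -0.38 ± 0.04 and stayed called with position correction (-0.18), as did the ATPase gene Chd3 (-0.27 ± 0.24 and -0.31). The Chd3 arrays read -0.45 and -0.098. Mbd3, called higher at 0.23 ± 0.13, had 0.0041 with position correction. Chd4 (-0.11) and Mta1 (0.10) were not called.

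Of the 6 deacetylases, 2 were called higher and 1 lower, or 50% beside the 52.0% of all measured genes. Hdac6, mainly a cytoplasmic deacetylase of tubulin, had 0.31 ± 0.09 and 0.10 with position correction, and Hdac5, a class IIa enzyme that shuttles between nucleus and cytoplasm, had 0.25 ± 0.08 and 0.18. Sirt1, an NAD-dependent deacetylase, was called lower (-0.14 ± 0.09, and -0.17 with position correction). The other class IIa genes Hdac4 (0.014) and Hdac7 (-0.080), and Hdac3 (-0.13), the enzyme of the NCoR complex, were not called. With position correction Hdac4 was called higher (0.16) and Hdac7 lower (-0.17). Of the corepressor scaffolds, Ncor1 had 0.084, and Sin3a was called lower (-0.17 ± 0.14) but was called higher with position correction (0.20).

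Polycomb repressive complex 2 methylates histone H3 to silence genes. Its catalytic subunits Ezh1 (0.14 ± 0.10, called higher) and Ezh2 (-0.073), and its partners Eed (-0.015) and Suz12 (-0.084), all stayed within 0.2 of 0. With position correction Ezh1 had -0.074, and Ezh2 (-0.27) and Eed (-0.20) were called lower.

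Among 7 lysine demethylases, 3 were called lower and 1 higher (57.1%, near the 52.0% of all measured genes). Kdm2b, which is targeted to CpG islands, had -0.34 ± 0.17, Kdm5b, which removes an active methyl mark of histone H3, had -0.27 ± 0.09, and Kdm3a, which removes a repressive one, had -0.17 ± 0.10. None of these 3 was called with position correction (-0.071, -0.14 and -0.032). Kdm5a, of the same subfamily as Kdm5b, was called higher with and without position correction (0.27 ± 0.12, and 0.16). Kdm4a (-0.089), Kdm5c (-0.035) and Kdm6b (-0.016) were not called, although with position correction Kdm4a (-0.28) and Kdm6b (-0.26) were called lower.

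Of the 4 acetyltransferases, 2 were called higher and 1 lower (75%, beside the 52.0% of all measured genes). Kat2a (GCN5) was called higher with and without position correction (0.30 ± 0.13, and 0.23). Its paralogue Kat2b (PCAF) was called higher (0.13 ± 0.0024) but not with position correction (0.11), and its other measured probe read -0.011. Ep300 was called lower (-0.23 ± 0.06) but had 0.17 with position correction, and its paralogue Crebbp, at 0.066, was called only with position correction (0.18). In processed signals Kat2a had 0.35 (limma adjusted p = 0.090). Among DNA methylation genes, the maintenance enzyme Dnmt1 (-0.29 ± 0.17) and the de novo enzyme Dnmt3a (-0.20 ± 0.0024) were called lower, and Dnmt3b (-0.10) and Tet2 (-0.12), which oxidises methylcytosine, were not called. With position correction none of these 4 was called.

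In all, 11 listed genes were called in 1 direction with and without position correction, 6 higher and 5 lower, beside 29.6% of all measured genes (16.0% higher and 13.6% lower). The higher ones were Smarcc1, Hdac5, Kdm5a, Ehmt1, Ehmt2 and Kat2a, and the lower ones Dpf2, Chd3, Mta2, Sirt1 and Dot1l. These calls are of the brightest probe. Measured probes of Kdm5a (-0.13 to 0.27) and Sirt1 (-0.14 to 0.11) differed in sign, and the other Smarcc1 probe had 0.096. Those of Chd3 (-0.27 to -0.14), Mta2 (-0.38 to -0.23) and Dot1l (-0.45 to -0.010) kept 1 sign. The rest had 1 measured probe. Position correction turned the sign of 11 of the 53 ratios, and processed signals that of 12. Among 116 measured genes of the same complexes and enzyme classes outside the list, these counts were 24 and 21.

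**Figure D4:**
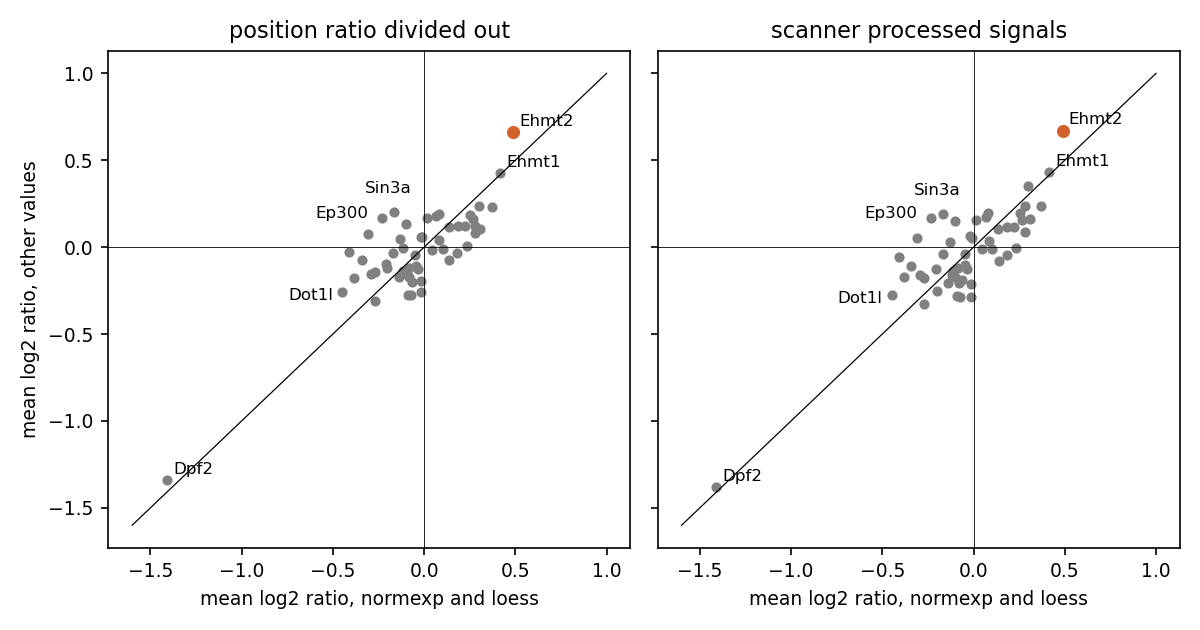
Mean log2 ratio (LMO2 siRNA over control siRNA) of the 53 chromatin genes after normexp and loess (x axis) against position-corrected ratios (left) and scanner processed signals (right), with the line of equal values and Ehmt2 in orange. Ehmt2 is at 0.49 against 0.66 and 0.67, and Ep300 and Sin3a lie left of 0 on the x axis and above 0 on the y axis.

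Ratios moved with the row of the spot on the array. Over all measured genes the median log2 ratio was -0.19, -0.083, -0.0076, 0.063 and 0.13 in 5 bands of rows, counted by row number. Probes of the listed genes ran the same way. Of the 25 measured probes in rows 2 to 107, 23 were below 0 (median -0.23), and of the 22 in rows 432 to 531, 17 were above 0 (median 0.16). With the position ratio divided out, those medians were -0.0037 and 0.0097, with 13 of the 25 and 10 of the 22 below 0.

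**Figure D5:**
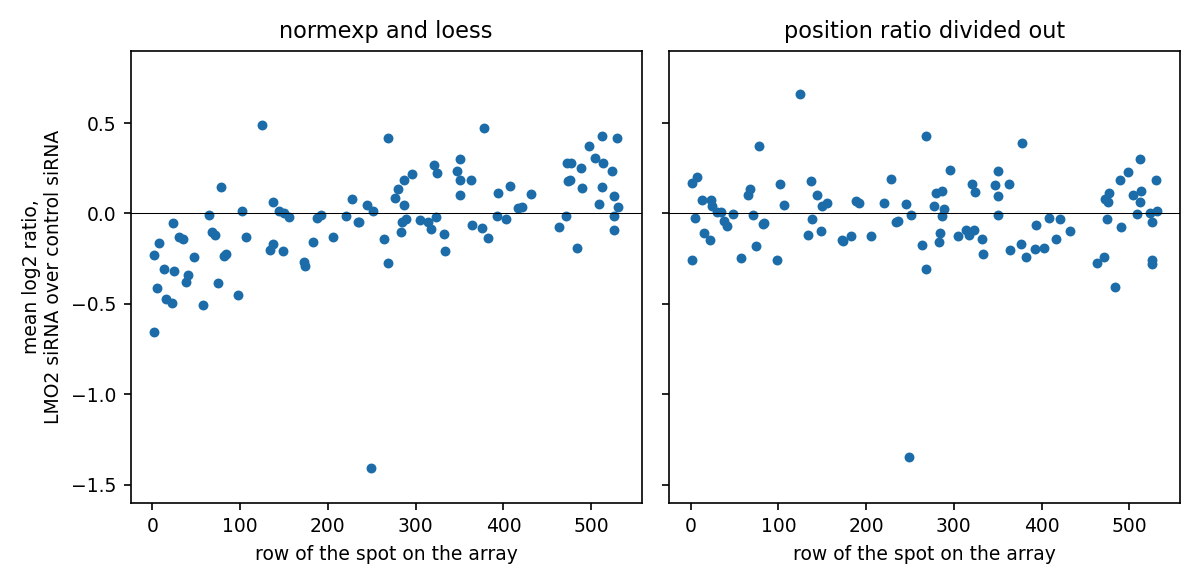
Mean log2 ratio (LMO2 siRNA over control siRNA) of each of the 102 measured probes against the row of its spot, after normexp and loess (left) and with the position ratio divided out (right). On the left 23 of 25 probes in rows 2 to 107 are below 0 and 17 of 22 in rows 432 to 531 above it; on the right 13 of the 25 and 10 of the 22 are below 0.

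Of the 29 listed genes with several measured probes, 19 had probes of opposite sign, beside 48.9% of the 5193 such genes over the array. The Kdm3a probes printed above read -0.47 at row 15, -0.17 at row 138 and 0.28 at row 477, and with position correction -0.11, -0.032 and 0.12. Pbrm1 probes ranged between -0.38 and 0.15, Smarca4 probes between -0.51 and 0.080, and Ncor1 probes between -0.13 and 0.42. Chd1, called lower by its brightest probe, had another probe at 0.48, and 0.39 with position correction. Ep300 read -0.23 at row 2 and 0.14 at row 512. Probes of a gene can differ in the transcript they match, and that was not tested.

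Genes of the same complexes and enzyme classes outside the list were counted in the same way. Of 122, 116 were measured, with 26 called higher, 41 lower and 49 neither (57.8% called, against the 52.0% of all measured genes), and a median log2 ratio of -0.044. Of the 116, 2 rose and 3 fell, beside 5.44% and 2.56% of all measured genes, so neither count stood above the background. Sirt5, a mitochondrial deacylase, rose (0.67 ± 0.09, with 0.61 and 0.73 on the arrays), as did Baz2a, a subunit of the nucleolar remodelling complex (0.42 ± 0.09). Phc1, a polycomb repressive complex 1 protein, fell to a signal 2.03-fold lower with LMO2 siRNA (-1.02 ± 0.05, with -0.98 and -1.05 on the arrays, limma adjusted p = 7.1e-16). Dpf1, a paralogue of Dpf2, fell too (-0.69 ± 0.12, with -0.77 and -0.60), and so did the methyltransferase gene Nsd3 (-0.24 ± 0.02). Probes of Baz2a (-0.11 to 0.50) and Nsd3 (-0.26 to 0.17) differed in sign.

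Promoters of 44 listed genes were matched in a RefSeq table of GRCm38.p6 (300 bases, 250 before to 50 after the start, first entry of each gene). Both strands were searched for the GATA motif AGATAA and the E-box CAGNTG, letters that GATA-1 and its E-box-binding partners can recognise. AGATAA was in 3 of the 44 (6.82%), those of Chd4, Hdac7 and Setdb1, beside 11.4% of 27025 promoters. CAGNTG was in 17 of the 44 (38.6%), beside 51.1%. The median count of CG dinucleotides was 27.5 in the 44 promoters and 7 in all 27025. That larger set was not limited to the measured genes used as background elsewhere. Whether the difference in CG count accounts for the lower motif shares of the 44 was not tested. A match is only a match of letters in this window.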

How the data were processed

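Total RNA of LMO2 siRNA and control siRNA cells was labelled and hybridised to 2-colour arrays, per the labels. The deposited scanner files hold each spot's intensity (mean signal, local background and processed signal per channel), written by Agilent Feature Extraction 9.1.3.1, per the file headers. The deposited position ratio per channel is the scanner's multiplicative detrend. The scanner's deposited log10 ratios put red (control) over green (LMO2 siRNA). The series' table holds the same values within 0.005, with a median of 0 on each array. The genome build of the array design was not given in the sources used here. The arrays share 1 slide and 1 scan, so neither could be tested as a batch.

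Background was corrected with normexp (offset 50) and arrays normalised by loess in limma 3.58.1 (R 4.3.3), with 1639 control spots at weight 0 and then left out. The 43379 remaining spots form 41174 probes, of which 24844 were named by accession, 9636 by the file's symbol and 6694 not at all. Of these, 24735 were measured. Ratios were tested against 0 with eBayes, Benjamini-Hochberg adjusted over 14308 genes. On values simulated for these 14308 genes, 100% of 1.5-fold and 100% of 2-fold changes were recovered, with 8 false calls. The simulation changed 100 genes at each fold and drew independent noise from the fit's own variance prior. It held no row drift, dye effect or flagged spots, so it cannot show how many calls on the real arrays are false.

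Every listed gene is named. Signals of each channel and array were to be given for genes that rose or fell, for Dpf2 and where the arrays differ by over 0.5; of the other chromatin genes, at most the 12 largest that rose or fell. Listed genes, other lists and tests were chosen with earlier results of these data known. Alternatives covered position, background, normalisation, filters, probes, flags, variance prior, threshold, the series' table and each array alone.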

Additional observations from a re-analysis of the deposited data

How the results depend on the processing

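Settings were varied 1 at a time, and the cause of each change below was not tested unless the setting itself tests fewer genes. With the position ratio divided out, 17 other chromatin genes were called higher and 2581 of all measured genes lower, the listed genes' median was -0.0146, and Sin3a (0.203), Ezh1 (-0.0743), Suv39h1 (-0.0314), Setdb1 (0.0751) and Ep300 (0.166) changed sign. Processed signals, with a prior of 2.2 degrees of freedom, called 1 listed gene higher and 0 lower, 2 and 5 other chromatin genes, and 975 and 489 of all genes, and reversed Mbd3 (-0.00715), Sin3a (0.190), Ezh1 (-0.0825), Suv39h1 (-0.0455), Setdb1 (0.0547) and Ep300 (0.165). The series' own table gave 1 and 0, 2 and 4, and 897 and 425, with Mbd3 at -0.00714, Sin3a 0.190, Ezh1 -0.0825, Suv39h1 -0.0454, Setdb1 0.0547 and Ep300 0.165. Centring on measured probes gave 3 higher and 33 lower, against 4628 and 5667 of all genes (32.3% and 39.6%), 67 other chromatin genes lower, 0 listed genes that rose and a median of -0.240, and reversed Smarca4 (-0.266), Smarcb1 (-0.055), Smarcd2 (-0.0668), Smarca5 (-0.0657), Mta1 (-0.227), Hdac4 (-0.188), Hdac5 (-0.105), Ncor1 (-0.215), Crebbp (-0.208) and Kat2b (-0.103).

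An offset of 10 put the listed genes' median at -0.0264. The mean of all probes called 17 other chromatin genes higher, put that median at -0.0154 and reversed Smarca4 (-0.150), Chd1 (0.0797) and Nsd1 (0.205). Centring on all spots, which lowers the median of all genes too, turned the sign of 20 listed genes. With no filter on dim probes, 0 listed genes rose, and 0 other chromatin genes rose and 0 fell, nor did any of all genes. With both channels above background, 3 listed genes rose (Ehmt2, Ehmt1 and Kat2a) and 1 fell (Dot1l), and 10 other chromatin genes rose and 15 fell, beside 11.5% and 8.79% of all genes. A prior with an intensity trend gave 5 listed genes that rose (Ehmt2, Ehmt1, Kat2a, Hdac5 and Smarcc1) and 3 that fell (Chd3, Dot1l and Mta2), with 15 and 23 of the others, beside 14.3% and 13.3% of all genes. Tested against a 1.5-fold change, 0 listed genes were called higher and 1 lower (Dpf2), 0 and 1 of the others, and 290 and 48 of all genes (2.36%), and 0 listed genes rose, as did 0 of the others, of which 0 fell. Leaving out saturated probes or flagged spots moved no count of called genes by over 1.5 times. Each array alone, a value with no test, gave a listed genes' median between -0.0434 and -0.0165. Over the settings that use both arrays, 434 values of listed genes kept their direction and side of the threshold, 114 lost the call, 29 gained one, 28 uncalled values moved and 30 reversed, in 18 genes. Each array alone kept the main value within 1 SD for 106 of 106 values, as 1 array of 2 always does. No paired analysis was possible because each array already holds both arms and gives 1 ratio. Signal over background limits dim probes, and 2 arrays of 1 dye orientation cannot show a dye effect.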
